A study of Mus musculus with 12 samples.

Results

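The 76 genes for the proteins of the cytosolic ribosome were examined in whole kidneys of mice given SK-124, an inhibitor of the salt-inducible kinases SIK2 and SIK3, and of mice given vehicle. They are the protein-coding genes whose symbols are *Rpl* or *Rps* followed by a number (with or without a or x), or by p0, p1, p2 or a, which takes 76 of the 55401 genes in the tables. Of these, 46 encode proteins of the large subunit and 30 encode proteins of the small subunit. All 76 passed the filter on low counts, so none is missing from the comparisons below.

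The 12 libraries came from 12 male C57BL6 mice that were 8 weeks old. A single intraperitoneal injection of 15% 2-hydroxypropyl-β-cyclodextrin was given to 6 mice as the vehicle, and SK-124 at 40 mg/kg to the other 6. No other treatment or genotype was given to either group, and the time from injection to kidney collection for these libraries is not given in the sources used here. The comparison asks which kidney transcripts differ after SK-124, and the ribosomal protein genes are followed through it as a group. Each mouse is 1 sample, and n = 6 per group throughout.

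Each library held between 19244227 and 19771802 expected counts. The ribosomal protein genes took 0.951% to 1.25% of them in the vehicle group and 0.829% to 1.16% in the SK-124 group. Mitochondrially encoded genes took 27.7% to 29.9% in the vehicle-treated mice, 29.4% to 32.4% in SK-124-treated mice 1 to 3 and 25.8% to 27.6% in SK-124-treated mice 4 to 6. Markers of kidney tubules were abundant, with the proximal tubule transporter *Slc34a1* at a median of 4727 CPM (counts scaled to the size of the library after adjustment by edgeR's TMM factors) in vehicle-treated and 4380 CPM in SK-124-treated mice, and 4 of 5 adrenal markers did not pass the filter. The library of vehicle-treated mouse 3 stood apart in the ribosomal protein genes and in short transcripts as a whole, so the counts and medians of the family, and the genes closest to the threshold, are given with and without it.

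A ribosomal protein is a structural part of the machine that reads mRNA. The small subunit holds the mRNA and checks the match between codon and tRNA, and the large subunit joins amino acids and passes the growing chain out through a tunnel. Most of the parts are used in equal numbers, the stalk proteins P1 and P2 being exceptions, and their mRNAs are among the most abundant of any cell. In mammals these mRNAs typically begin with a cytosine in an unbroken run of pyrimidines, the 5′ terminal oligopyrimidine (TOP) motif, through which the kinase complex mTORC1 and the RNA-binding protein LARP1 set how well they are translated. Translation of this kind is not seen in mRNA abundance, which is all that was measured here.

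The first bases of the transcripts are shown because the TOP motif is the sequence feature that this family is known for. Promoter entries from RefSeq (mouse build GRCm38.p6) were found for 56 of the 76 genes, in 66 entries. Each window below runs on the strand of the gene from 10 bases before the annotated start to 20 bases from it on, 30 bases in all, and capitals mark an unbroken run of at least 5 pyrimidines that covers the start. The first 8 genes have such a run and the last 5 do not. Members near the top and near the low end of the levels are among the last 5. *Rpl39*, the member of lowest level, has a run of 5 pyrimidines, and its window is not shown.
Rpl15 (chr14:18270967-18270996, minus strand): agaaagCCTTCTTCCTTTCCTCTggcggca
Rpl27a (chr7:109519185-109519214, plus strand): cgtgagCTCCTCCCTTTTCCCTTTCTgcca
Rpl35 (chr2:39005112-39005141, minus strand): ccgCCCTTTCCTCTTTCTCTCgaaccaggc
Rplp2 (chr7:141447641-141447670, plus strand): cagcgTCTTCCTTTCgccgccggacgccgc
Rps6 (chr4:86857348-86857377, minus strand): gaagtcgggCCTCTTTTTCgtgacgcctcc
Rps9 (chr7:3704031-3704060, plus strand): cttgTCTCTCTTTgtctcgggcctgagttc
Rps15a (chr7:118116128-118116157, minus strand): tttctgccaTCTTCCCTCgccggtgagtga
Rps21 (chr2:180257369-180257398, plus strand): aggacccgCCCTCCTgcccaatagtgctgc
Rps2 (chr17:24720053-24720082, plus strand): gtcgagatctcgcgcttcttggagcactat
Rpl41 (chr10:128549149-128549178, minus strand): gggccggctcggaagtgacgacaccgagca
Rps15 (chr10:80292421-80292450, plus strand): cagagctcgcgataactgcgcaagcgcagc
Rps3 (chr7:99483690-99483719, minus strand): aagggtcgccgcgctgcgcggcgtcattgc
Rpl36a (chrX:134585644-134585673, plus strand): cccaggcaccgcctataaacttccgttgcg

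Of the 56 genes with an entry, 20 (35.7%) had such a run at the annotated start, against 11.8% of all 27025 genes with an entry. The letters CCGGAAG, read on both strands in the 250 bases before and 50 bases after the start, were found for 23 members (41.1%) and 9.93% of all genes. TGACGTCA was found for 5 members (8.93%) and 2.03% of all genes, AAGATGGC for 5 (8.93%) and 3.19%, and TATAAA for 6 (10.7%) and 15.7%. These matches describe the letters in the annotated windows. The start used in kidney was not measured, and a start annotated a few bases away hides a run.

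The genes lie on 19 chromosomes, with 14 members on chromosome 7 and 4 on chromosome X (*Rpl10*, *Rpl36a*, *Rpl39* and *Rps4x*). A small nucleolar RNA is annotated inside 29 of the 76 genes (38.2%), against 322 of the 13008 other protein-coding genes tested (2.48%). Their transcripts are short: the median transcript length was 678 bases, against 2405 bases over all 14159 genes tested.

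The mRNA levels of the family were not equal. Mean levels per transcript length over the 12 mice had a median of 196 TPM (the share of all transcripts, corrected for length), and ran from 51.0 TPM for *Rpl39* to 755 TPM for *Rps2* among the genes named here. The middle of the range was similar for the large subunit (median 193 TPM) and the small subunit (215 TPM). Only 6 members were above 500 TPM and 7 below 100 TPM.

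Near the top was *Rps2*, whose protein lines the channel by which mRNA enters the small subunit. Its lowest, median and highest levels were 648, 737 and 823 TPM in vehicle-treated mice and 603, 769 and 950 TPM in SK-124-treated mice. *Rpl41*, which encodes a very small basic protein at the subunit interface, had 615, 678 and 858 TPM with vehicle and 492, 703 and 875 TPM with SK-124. *Rplp1*, for an acidic protein of the stalk that recruits elongation factors, had 609, 645 and 886 TPM with vehicle and 493, 672 and 780 TPM with SK-124. These 3 genes overlapped between the groups. *Rps15*, for a small subunit protein near the decoding site, had 486, 523 and 679 TPM with vehicle and 388, 549 and 635 TPM with SK-124. It overlapped between the groups as well.

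At the low end were *Rpl39*, for a protein that lines the exit tunnel, with 47.4, 50.4 and 58.9 TPM in vehicle-treated mice and 36.8, 55.1 and 59.8 TPM in SK-124-treated mice. *Rps20* had 53.2, 59.4 and 79.0 TPM with vehicle and 41.8, 59.3 and 71.3 TPM with SK-124. *Rps15a* had 51.7, 65.1 and 73.4 TPM with vehicle and 45.7, 65.0 and 85.0 TPM with SK-124. All 3 lay below the lowest value of each gene of the paragraph before. *Rps3*, for a protein of the mRNA entry channel with a second role in DNA repair, had 78.7, 79.995 and 96.2 TPM with vehicle and 59.5, 81.8 and 92.5 TPM with SK-124. *Rpl36a* had 75.9, 84.2 and 124.4 TPM with vehicle and 68.3, 86.7 and 99.4 TPM with SK-124. Annotated processed copies of it held 8.78% of the counts of the gene and its copies together, so its level is uncertain.

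**Figure D1:**
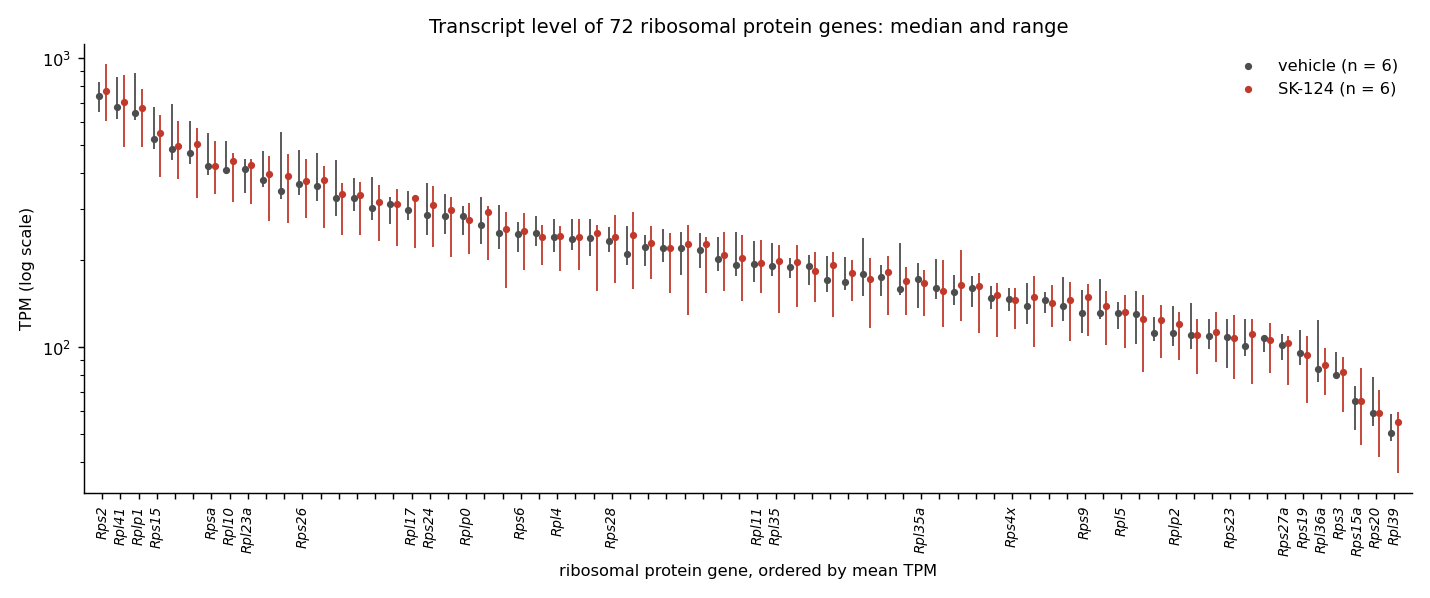
Transcript level of 72 ribosomal protein genes in TPM (log scale), ordered by the mean over 12 mice, with the symbols of those the text describes; points are group medians and lines run from the lowest to the highest of 6 mice, for vehicle (grey) and SK-124 (red). The levels fall with no gap to 51.0 TPM for *Rpl39*, and the 2 groups overlap for every gene.

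The order of the levels was nearly the same in every mouse. Spearman's rho between the 76 levels of one mouse and those of another was 0.979 to 0.996 over the 66 pairs of mice, which is a description across genes of libraries that share the same gene lengths. For none of the 75 neighbouring pairs did the ranges over the 12 mice part, and in 6 pairs the higher gene was higher in all 12 mice.

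The family moved as a block from mouse to mouse. The median member of vehicle-treated mouse 3 lay 0.336 log2 units of CPM above the vehicle mean, and all 76 members were above it. In the other 5 vehicle-treated mice the median member lay at 0.0149 (mouse 1), -0.0906 (mouse 2), -0.0756 (mouse 4), -0.0696 (mouse 5) and -0.113 (mouse 6) on the same scale. One vehicle library was therefore high and the other 5 were close together. With SK-124 the median member lay at 0.0392 in mouse 1, -0.0891 in mouse 2, 0.216 in mouse 3, 0.180 in mouse 4, 0.141 in mouse 5 and 0.164 in mouse 6. Mouse 1 and mice 3 to 6 of the SK-124 group were above 5 of 6 vehicle-treated mice, while SK-124-treated mouse 2 lay among the low vehicle-treated mice.

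**Figure D2:**
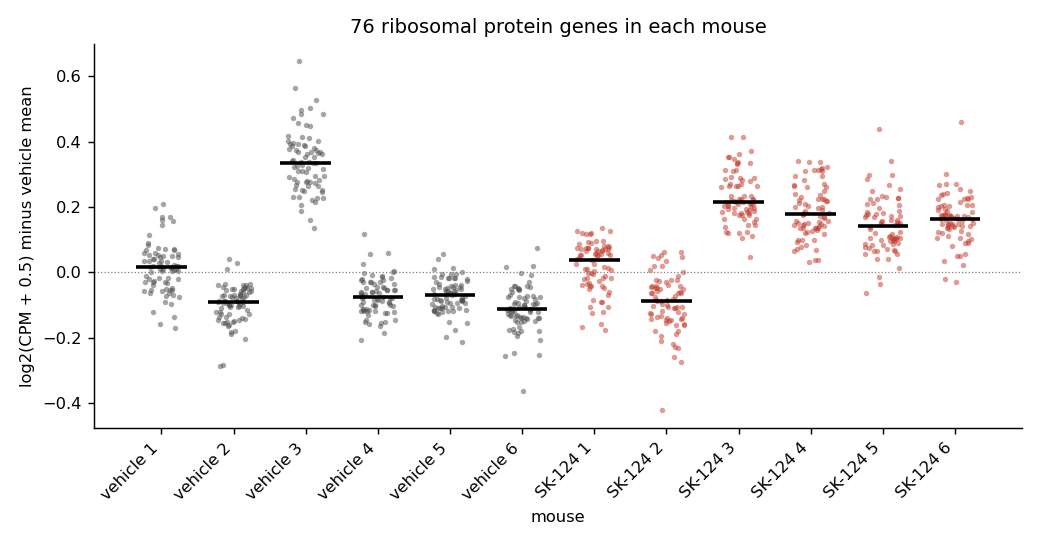
Each point is 1 of the 76 ribosomal protein genes in 1 mouse, as log2(CPM + 0.5) minus the mean of that gene in the 6 vehicle-treated mice; black bars are the medians of the 76 genes. The median is high in vehicle-treated mouse 3 (0.336) and in SK-124-treated mice 3 to 6 (0.141 to 0.216). It is below zero in SK-124-treated mouse 2 (-0.0891) and in vehicle-treated mice 2, 4, 5 and 6 (-0.113 to -0.0696).

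Vehicle-treated mouse 3 had the highest CPM of its group for 75 of the 76 members, *Rpl5* being the exception, and SK-124-treated mouse 2 the lowest of its group for 68. The spread within the vehicle group was accordingly wide for abundant genes. The median SD over members was 0.178 log2 units in the vehicle group and 0.134 in the SK-124 group, and 0.0679 over the vehicle-treated mice without mouse 3. Over the 4685 genes, members included, that were at least as abundant as the lowest member the median SD in the vehicle group was 0.110. Once the median member of each mouse was subtracted, the members' median SD in the vehicle group was 0.0639 log2 units.

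Correlations between members showed the same block. Over the 12 mice, Pearson's r between 2 members had a median of 0.849 over 2850 pairs, with a lowest value of 0.255, and Spearman's rho a median of 0.818. Without vehicle-treated mouse 3 the median r was 0.815, and without vehicle-treated mice 3 and 6, the mice farthest out in the vehicle group, it was 0.811. It was 0.816 within the 6 SK-124-treated mice and 0.914 within the 6 vehicle-treated mice, mouse 3 included. Within the groups the median rho was lower, at 0.714 with SK-124 and 0.60 with vehicle. The lowest r was -0.208 with SK-124, where 2 pairs were negative, and 0.296 with vehicle. These values are descriptions over libraries whose genes share depth and scaling. The correlation of a member with the mean of the others had a median of 0.926 and was above 0.9 for 48 of the 76. It was lowest for *Rps29* (0.748), *Rpl27* (0.749) and *Rpl22* (0.757).

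None of the 76 genes passed the test for a difference between SK-124 and vehicle. With edgeR's quasi-likelihood test and Benjamini-Hochberg adjustment over all 14159 genes, 0 of 76 were called higher and 0 lower at an FDR under 0.05, where 10.8% of all genes tested were called higher and 13.5% lower. At an unadjusted p under 0.05 there were 6 members, all higher, where 16.2% of all genes were higher at that level. The ranges of the 2 groups overlapped for every member, whereas they did not overlap for 13% of all genes. DESeq2 called 2 members higher (*Rps2* and *Rps9*) and 0 lower, with 12.2% of all genes called higher, and RLE factors in edgeR gave 1 (*Rps2*; 11.4% of all genes).

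The estimates nevertheless all lay on the same side of zero under this scaling. All 76 log2 fold changes were positive, from 0.012 (*Rps19*) to 0.233 (*Rps21*) with a median of 0.101, where 49% of all genes had a positive value and the median of all genes was -0.0050. The median was 0.102 for the large and 0.10 for the small subunit. The 95% confidence intervals of the single genes ran between -0.191 and 0.444 on the log2 scale, and 70 of the 76 reached below zero. The direction rests on the scaling: with library totals in place of TMM factors 34 of 76 were positive with a median of -0.0045 (25.8% of all genes were positive), and with limma on log2(TPM + 1) 12 were positive with a median of -0.042 (22% of all genes). In those fits the median of all genes moved to -0.118 and -0.107, so that the members stood 0.114 and 0.065 log2 units above it, against 0.106 with TMM. With limma on log2(TPM + 0.1) the members' median was -0.043 and that of all genes -0.144, which put the members 0.101 above it. Because the 76 genes rise and fall together from mouse to mouse, their 76 signs are not separate pieces of evidence.

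**Figure D3:**
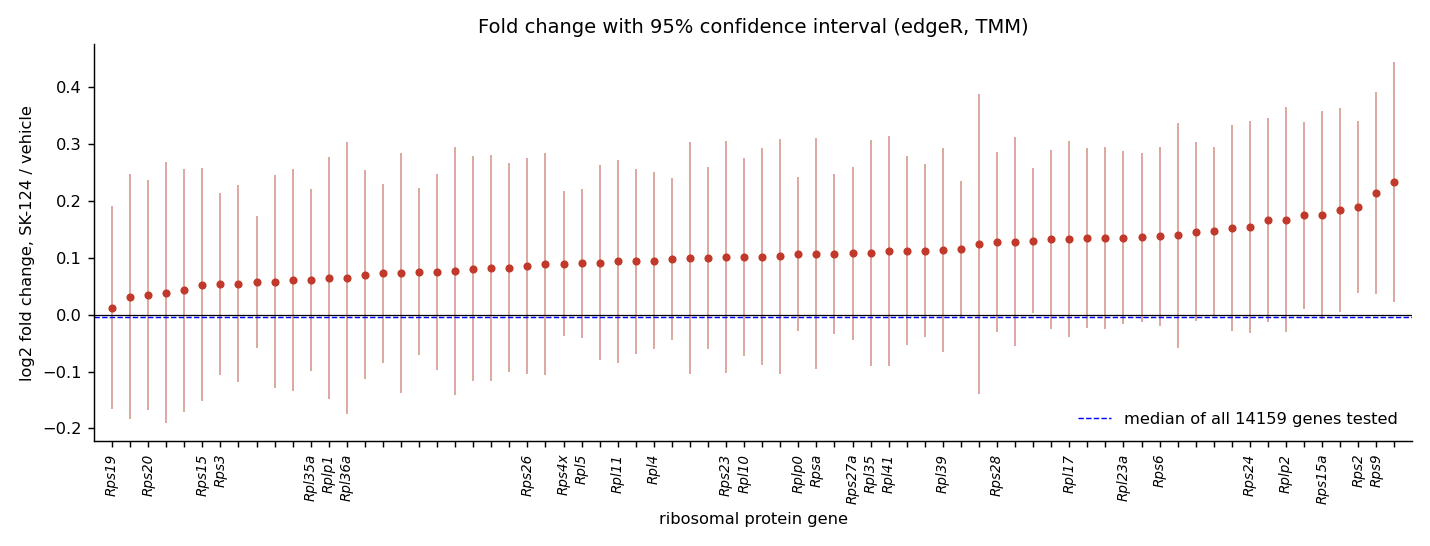
Log2 fold change of SK-124 over vehicle for 72 ribosomal protein genes, with symbols for those the text describes, each with its 95% confidence interval from edgeR with TMM scaling (n = 6 mice per group); the dashed line is the median of all genes tested. Every estimate plotted is above zero, and most intervals reach below it.

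Vehicle-treated mouse 3 decided the count of calls. Without it 40 of 76 members were called higher (13.1% of all genes were) and 0 lower, with a median log2 fold change of 0.179. Leaving out SK-124-treated mouse 2 gave 2 calls, *Rps2* and *Rps21* (10.2% of all genes), and leaving out any other mouse gave 0. With the mice numbered 3 of both groups left out, 20 members were called higher (11.1% of all genes). The 3 SK-124-treated mice with the smaller mitochondrial share, mice 4 to 6, gave 3 calls against all vehicle-treated mice, namely *Rps2*, *Rps21* and *Rpl27*, with a median of 0.160 (8.06% of all genes called higher). SK-124-treated mice 1 to 3 gave 0 calls and a median of 0.0505 (7.34% of all genes). No member was called lower in any of these fits.

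*Rps2* had the smallest p of the family. It measured 430, 440 and 555 CPM (lowest, median and highest) in vehicle-treated mice and 472, 524 and 580 CPM in SK-124-treated mice. All SK-124-treated mice were above all vehicle-treated mice other than mouse 3, whose 555 CPM compares with 460 CPM for the next. Its log2 fold change was 0.19 (SE 0.07), with an FDR of 0.0658 by edgeR. An exact two-sided permutation test gave p = 0.0303, which is not adjusted for its choice as the smallest p among 76 members. *Rps9*, for a protein of the mRNA entry side, measured 70.6, 75.7 and 102.2 CPM with vehicle and 82.1, 95.3 and 99.7 CPM with SK-124, with a log2 fold change of 0.21 (SE 0.08) and an FDR of 0.0763. The next vehicle-treated mouse below mouse 3 had 83.1 CPM of it, so the groups overlapped without mouse 3 as well. *Rps21*, for a small protein of the small subunit, had the largest estimate, with 39.9, 42.9 and 57.4 CPM against 41.6, 53.4 and 61.4 CPM, a log2 fold change of 0.23 (SE 0.10) and an FDR of 0.104. The same permutation test gave unadjusted p = 0.0519 for *Rps9* and p = 0.0801 for *Rps21*. None of the 3 passed the threshold in the main fit, edgeR with TMM factors and all 12 mice. DESeq2, also with all 12 mice, gave FDRs of 0.0281 for *Rps2* and 0.0486 for *Rps9*. Without vehicle-treated mouse 3 all 3 were called higher by edgeR, *Rps2* with a log2 fold change of 0.25 (FDR 0.00369), *Rps9* with 0.30 (FDR 0.00195) and *Rps21* with 0.32 (FDR 0.0116). They are the members with the smallest p or the largest change, and *Rps9* and *Rps21* were picked out after their values were seen.

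Members of each working part of the ribosome are given next, chosen by their known role after the values were seen. In the stalk of the large subunit, which recruits elongation factors, *Rplp0* measured 299, 308 and 377 CPM with vehicle and 305, 353 and 360 CPM with SK-124. *Rplp2* measured 33.1, 41.8 and 54.7 CPM with vehicle and 43.8, 47.9 and 53.2 CPM with SK-124. *Rplp1* measured 197, 203 and 303 CPM with vehicle and 200.3, 228 and 261 CPM with SK-124. In all 3 the highest vehicle value was that of mouse 3 and the SK-124 median lay above the vehicle median. *Rpl5* and *Rpl11*, whose proteins form a particle with the 5S rRNA that can bind the p53 regulator MDM2, measured 134, 140 and 164 CPM and 88.1, 98.3 and 129 CPM with vehicle. With SK-124 they measured 143, 156 and 167 CPM and 98.1, 108 and 120 CPM.

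Around the tunnel through which new proteins leave, *Rpl4* had 314, 328 and 429 CPM with vehicle and 333, 365 and 402 CPM with SK-124. *Rpl17*, for a protein of the same tunnel, had 166, 181 and 232 CPM with vehicle and 174, 205 and 240 CPM with SK-124. At the mouth of the tunnel, where nascent chain factors dock, *Rpl35* had 122.0, 128 and 186 CPM with vehicle and 122.4, 151 and 156 CPM with SK-124. The groups overlapped in each, and the second highest vehicle-treated mouse was well below the highest, at 347 CPM for *Rpl4*, 188 CPM for *Rpl17* and 132 CPM for *Rpl35*. *Rpl23a*, also at the tunnel mouth, had 140, 154 and 185 CPM with vehicle and 153, 171 and 199 CPM with SK-124.

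In the small subunit, *Rps23*, whose protein sits at the decoding centre, had 58.6, 65.7 and 85.8 CPM with vehicle and 60.3, 73.8 and 84.5 CPM with SK-124. At the side where mRNA leaves, *Rps26* had 171, 181 and 258 CPM against 178, 207 and 219 CPM, and *Rps28* had 43.5, 44.5 and 53.6 CPM against 41.8, 50.1 and 57.0 CPM. *Rps6*, whose protein is the classical substrate of the S6 kinases downstream of mTORC1, had 164, 173 and 215 CPM against 171, 200.2 and 215 CPM. None of these 4 separated the groups. *Rps27a*, which encodes a ribosomal protein fused to ubiquitin, had 47.4, 51.3 and 64.2 CPM against 51.1, 56.7 and 63.4 CPM. *Rpsa*, whose product was also described as a laminin receptor, had 360, 390 and 578 CPM against 404, 465 and 488 CPM.

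Genes mutated in Diamond-Blackfan anaemia, an inherited failure of red cell production, were no exception. *Rps19* measured 48.6, 50.2 and 66.6 CPM with vehicle and 43.5, 55.1 and 59.5 CPM with SK-124, and it had the smallest log2 fold change of the family. *Rps24* measured 119, 123 and 169 CPM against 126, 143 and 166 CPM, and *Rpl35a* 47.0, 52.9 and 66.8 CPM against 52.1, 56.9 and 62.9 CPM. The X-linked *Rpl10* (248, 264 and 363 CPM against 263, 301 and 325 CPM) and *Rps4x* (113, 117 and 145 CPM against 122, 131 and 136 CPM) overlapped between the groups like the autosomal members.

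The genes with and without a pyrimidine run at the annotated start are given side by side, with no test of a difference. The 20 with a run had a median log2 fold change of 0.11 (0.054 to 0.233), and the 36 without had 0.0996 (0.012 to 0.189). Median levels were 215 and 181 TPM. *Rps21* and *Rps9* are among those with a run and *Rps2* among those without, as their windows above show.

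The summed level of the family did not part the groups either. The 76 genes summed to 16837, 18665 and 22641 TPM (lowest, median and highest) in vehicle-treated mice and to 13811, 19580 and 21309 TPM in SK-124-treated mice. SK-124-treated mice 1 and 2, at 15597 and 13811 TPM, lay below every vehicle-treated mouse, and they had the largest mitochondrial shares (32.4% of counts in both). When TPM was rescaled without mitochondrially encoded genes and the 10 genes with the most counts, the sums were 43130 to 51496 with vehicle and 39352 to 49264 with SK-124. In whole kidney, fewer cells of a kind and less of an mRNA per cell cannot be told apart.

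Transcript length moved with this pattern in all other genes. The 14083 genes outside the family were placed in 10 bins of transcript length. In vehicle-treated mouse 3 the median gene lay 0.232 log2 units of CPM above the vehicle mean in the bin of shortest transcripts and at -0.198 in the bin of longest, falling from each bin to the next. In SK-124-treated mouse 3 the medians of the same bins were 0.133 and -0.105, and in SK-124-treated mouse 2 they were -0.0859 and 0.106. Vehicle-treated mouse 3 and SK-124-treated mice 3 to 6 thus had both the ribosomal protein genes and the shortest transcripts above the vehicle mean, and SK-124-treated mouse 2 had both below it. SK-124-treated mouse 1 was an exception, with the members at 0.0392 and the shortest transcripts at -0.0205.

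**Figure D4:**
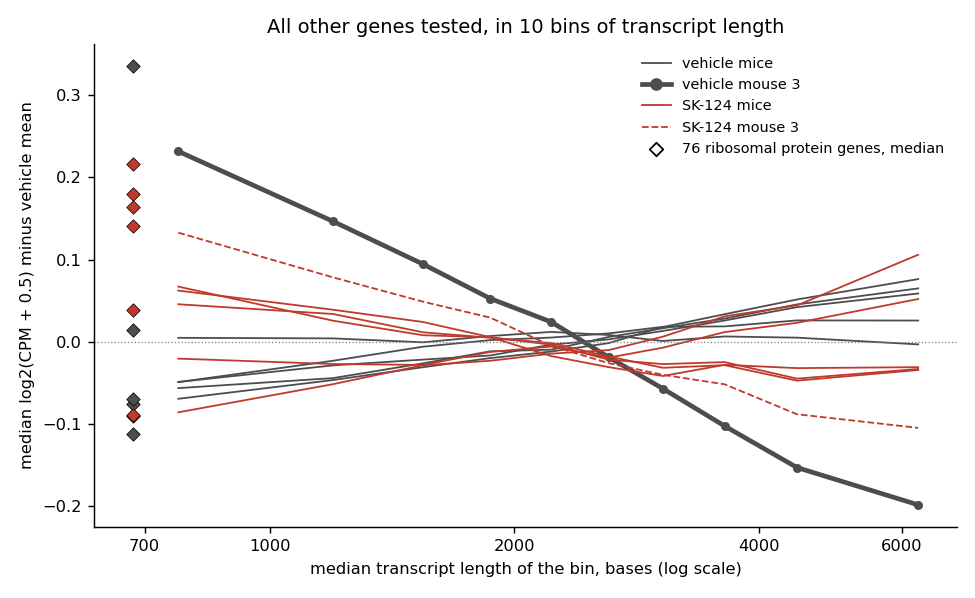
Lines show, for each mouse, the median log2(CPM + 0.5) minus the vehicle mean in 10 bins of transcript length over the genes outside the family (x axis, bases, log scale; grey vehicle, red SK-124); diamonds show the median of the 76 ribosomal protein genes at their median length of 678 bases. Vehicle-treated mouse 3 (thick line) falls from 0.232 to -0.198, and SK-124-treated mouse 3 (dashed) from 0.133 to -0.105.

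For 427 other genes of similar length (490 to 1072 bases) and abundance, the median lay at 0.268 in vehicle-treated mouse 3 and 0.183 in SK-124-treated mouse 3, against 0.336 and 0.216 for the ribosomal protein genes. These 427 genes had a median log2 fold change of 0.0681, with 336 positive, 34 called higher and 5 lower. After a length trend was removed from each library, the median ribosomal protein gene lay between -0.041 and 0.0686 in the vehicle group and between 0.0085 and 0.094 in the SK-124 group, still with vehicle-treated mouse 3 the highest of its group. In that fit 6 of 76 members were called higher and 0 lower (14.5% of all genes were called higher), with a median log2 fold change of 0.0671 and 67 positive. The 6 were *Rps9*, *Rps2*, *Rpl3*, *Rpl6*, *Rpl10a* and *Rpl23*. With the same length correction and vehicle-treated mouse 3 left out, 15 were called higher (14.4% of all genes) with a median of 0.0823. Removing a trend on GC content instead gave 7 calls higher (12.3% of all genes) and a median of 0.109. What set the length trend was not tested.

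Other measures of vehicle-treated mouse 3 are given beside this. Its depth, 19771802 counts, was the largest of the 12, its mitochondrial share of 27.7% the smallest of the vehicle group and its 10 most abundant genes took 42.7% of counts within a vehicle range of 39.9% to 43.2%. Against the mean over all 12 mice, its median marker lay at 0.66 log2 units for fibroblasts and smooth muscle, the highest of the 12, and at -0.43 for the thick ascending limb, the lowest of the 12. Its median red blood cell marker lay at 0.87, next to 0.88 in vehicle-treated mouse 4, whose median ribosomal protein gene was at -0.0756 against the vehicle mean. The 5 red blood cell markers summed to 457, 596 and 1257 CPM (lowest, median and highest) in vehicle-treated mice and to 547, 658 and 784 CPM in SK-124-treated mice, and none of the 5 was called. The proximal tubule list summed to 7376 to 8364 CPM with vehicle and 6859 to 8764 CPM with SK-124, with 0 of 6 called. The fibroblast and smooth muscle list summed to 86.7 to 141 CPM and 60.8 to 120 CPM, with *Acta2* higher and *Pdgfrb* lower. Of the endothelial list 1 of 4 was called (*Kdr*, lower), of the immune list 1 of 5 tested (*Cd79a*, lower) and of the collecting duct list 1 of 3 (*Aqp2*, higher), while neither gene of the thick ascending limb or of the distal convoluted tubule was called. The part of cell composition in the ribosomal protein values was not tested.

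Genes outside the rule that followed the family most closely over the 12 mice were *Emc6* (r = 0.979), for a subunit of a membrane protein insertion complex, *Rack1* (0.978) and *Fau* (0.976), which are themselves parts of the small subunit, *Pfdn5* (0.963), for a chaperone subunit, and *Ndufa7* (0.961), for a subunit of respiratory complex I. Their log2 fold changes lay between 0.10 and 0.13 and none was called. Most opposite were *Arhgap35*, *Sesn3*, *Nfatc3*, *Rdx* and *Arid1a* (r from -0.969 to -0.957), whose transcripts measured 3581 to 9011 bases. Among non-members 117 genes had r above 0.9, with a median length of 829 bases, and 57 had r below -0.9, with a median length of 4949 bases. Without vehicle-treated mouse 3, 95 non-members had r above 0.9, with a median length of 970 bases.

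Ribosomal proteins whose symbols fall outside the rule had values in the same range. *Rps3a1*, *Fau* and *Rack1* had log2 fold changes of 0.13, 0.13 and 0.10, and 0 of the 3 were called. Of 8 paralogs, genes for variant copies of a ribosomal protein, 6 passed the filter and 1 was called higher, where 10.8% of all genes were. This was *Rpl3l*, a copy of *Rpl3* known from skeletal muscle and heart, which measured 0.69, 0.75 and 1.23 CPM with vehicle and 0.93, 1.22 and 1.75 CPM with SK-124 (log2 fold change 0.66, SE 0.20, FDR 0.0241). This is a level near the lowest that passed the filter, and the groups overlapped. With library totals its FDR was 0.0689 and with limma on log2(TPM + 1) 0.0973. The parent *Rpl3* had 123, 129 and 150 CPM against 129, 144 and 158 CPM and was not called.

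Annotated processed copies could take counts from the members. The tables hold 291 pseudogenes named after 59 of the 76 members, and their counts came to 1.05% to 1.22% of those of the members. For 7 members the copies held more than 5% of the counts of parent and copies together, with *Rpl31* (8.88%) and *Rpl36a* (8.78%) the largest. Of 26 that passed the filter, 0 were called higher and 1 lower, *Rpl29-ps2* (log2 fold change -0.75, FDR 0.00171). Adding the counts of the copies to their parents left the calls at 0 higher and 0 lower (10.9% of all genes were called higher). The authors' own posterior SD of a member's count was at most 1.14% of that count (median 0.101%), with counts of 352 to 12054 per gene and mouse.

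Several genes that regulate translation passed the test. Of 23 regulators and effectors of mTORC1, 10 were called higher and 0 lower, where 10.8% of all genes were called higher and 13.5% lower. *Ddit4*, which encodes the stress-induced mTORC1 inhibitor REDD1, rose from 4.21, 4.95 and 5.64 CPM (lowest, median and highest) to 70.0, 84.7 and 107.6 CPM (log2 fold change 4.15, SE 0.12, FDR 4.64e-13). *Eif4ebp3*, for a repressor of cap-dependent initiation, rose from 3.08, 4.70 and 5.18 CPM to 54.4, 61.7 and 102 CPM (log2 fold change 4.03, SE 0.19, FDR 1.27e-10). *Sesn2*, for a leucine sensor that restrains mTORC1, rose from 41.3, 45.3 and 50.9 CPM to 153, 166 and 189 CPM (log2 fold change 1.87, SE 0.07, FDR 5.97e-12). In these 3 genes every SK-124-treated mouse was above every vehicle-treated mouse. The other 7 were *Sesn1* (log2 fold change 0.95), *Ddit4l* (0.87), *Castor1* (0.55), *Eif4ebp1* (0.51), *Mtor* (0.42), *Pdcd4* (0.41) and *Tsc1* (0.36). Most of the 10 encode proteins known to restrain mTORC1 or translation, and *Mtor* encodes the kinase itself. The remaining 13 were not called, and the median of the 23 was 0.071.

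Of 17 other mRNAs with a TOP motif or a role in elongation, 2 were called higher and 1 lower, with a median log2 fold change of 0.11. Of all genes 10.8% were called higher and 13.5% lower. *Hnrnpa1*, for an RNA-binding splicing regulator, rose from 33.9, 35.3 and 37.4 CPM to 40.3, 41.5 and 42.8 CPM without overlap (log2 fold change 0.23, SE 0.05, FDR 0.00153), and *Eif3h*, for a subunit of initiation factor eIF3, rose by 0.18 (SE 0.05, FDR 0.0210). Both calls rest on the scaling: with library totals *Hnrnpa1* was at 0.11 (FDR 0.247) and *Eif3h* at 0.074 (FDR 0.508). *Vim*, for the intermediate filament protein vimentin, fell by 0.38 on the log2 scale (SE 0.10, FDR 0.00814). The elongation factor genes *Eef1a1* (2214, 2255 and 2350 CPM against 2398, 2463 and 2683 CPM) and *Eef2* (949, 1057 and 1072 CPM against 1092, 1114 and 1248 CPM) did not overlap between the groups, yet had FDRs of 0.0880 and 0.0757 and were not called. Their transcripts, 1735 and 3052 bases, are longer than the median of 678 bases for the ribosomal protein genes. The member *Rps3*, at 1870.5 bases, is longer than *Eef1a1*. Against the mean over all mice, vehicle-treated mouse 3 lay at -0.013 log2 units for *Eef1a1* and -0.19 for *Eef2*. Whether length accounts for this was not tested.

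Of 25 initiation factor genes 5 were called higher and 0 lower, with a median of 0.088 (10.8% of all genes were called higher and 13.5% lower). They included *Eif1* (log2 fold change 0.39, SE 0.06, FDR 2.10e-04), which guards start codon choice, and *Eif1a* (0.39, SE 0.07, FDR 5.89e-04). Also called were *Eif4a1* (0.18, FDR 0.0210), for the helicase that opens the mRNA, *Eif2s2* (0.19, FDR 0.0494) and *Eif4g2* (0.17, FDR 0.0405). Of the 31 alternative settings, *Eif2s2* lost the call in 17, *Eif4g2* in 15 and *Eif4a1* in 7. Of 51 ribosome biogenesis genes 5 were called higher and 3 lower, with a median of 0.053, no more than the shares of all genes. *Utp20*, for a factor in small subunit assembly, rose by 0.89 (SE 0.09, FDR 1.05e-06), and *Gnl3*, *Rcl1*, *Nop14* and *Ncl* rose by 0.38, 0.38, 0.23 and 0.22. *Ubtf*, for the RNA polymerase I factor UBF, fell by 0.43 on the log2 scale (SE 0.06, FDR 2.59e-05), *Rrs1* fell by 0.42 and *Tcof1*, for the nucleolar protein treacle, fell by 0.28. Of 78 mitochondrial ribosomal protein genes, which serve the separate ribosome of that organelle, 5 were called higher and 1 lower, led by *Mrps6* (0.52, SE 0.10, FDR 8.48e-04), with a median of 0.025, again below those shares. The other called genes were *Mrpl50*, *Mrpl53*, *Mrpl44* and *Mrps18a*, which were higher, and *Mrpl47*, which was lower with an FDR of 0.0490, close to the threshold (0.0847 with DESeq2). Of the 33 genes called in these lists, 19 kept the call with library totals and 13 with limma on log2(TPM + 1). Those without the call in both fits were *Rpl3l*, *Eif3h*, *Hnrnpa1*, *Ncl*, *Nop14*, *Rcl1*, *Eif2s2*, *Eif4a1*, *Eif4g2*, *Tsc1*, *Mrps18a*, *Mrpl44*, *Mrpl53* and *Mrpl50*. Whether these lists differ from the ribosomal protein genes was not tested.

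**Figure D5:**
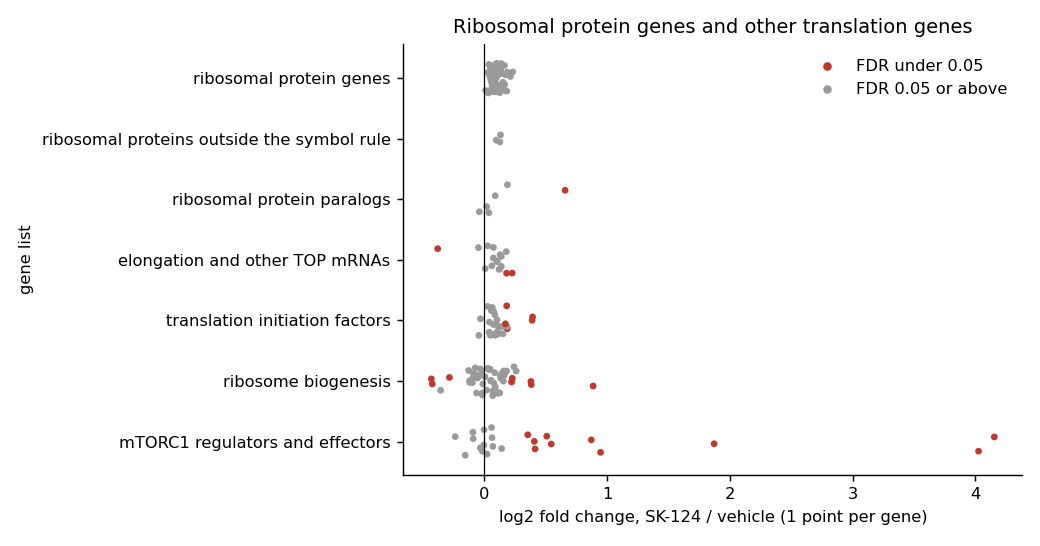
Log2 fold change of SK-124 over vehicle (x axis, edgeR with TMM scaling) for the ribosomal protein genes and 6 other lists of translation genes. There is 1 point per gene that passed the filter, without the genes not reported here, and red points had an FDR under 0.05. The 72 ribosomal protein genes plotted sit between 0.012 and 0.233 with none called, and the mTORC1 list reaches 4.15 with 10 of 23 called.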

How the data were processed

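mRNA libraries of whole kidney were sequenced (BGISEQ-500) in 12 mice, 6 per group, grouped by the treatment label. Per the submitters' processing notes, STAR 2.7.2b, RSEM 1.3.0 and mm10 were used, and FastQC and DESeq2 are also named. The authors deposited 1 RSEM table per mouse with expected counts, TPM, posterior mean counts and their SDs (a count-like signal), and transcript lengths; whether counting used strand is not given in the sources used here. Identifiers were matched to GENCODE M21 (54349 of 55401 with version, all 76 members).

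Expected counts were rounded. Genes passing filterByExpr (14159) were tested with edgeR 4.0.16 (TMM, quasi-likelihood, Benjamini-Hochberg over all genes, FDR 0.05; R 4.3.3); CPM are TMM-scaled, and deviations use log2(CPM + 0.5). Single values were compared by exact permutation (smallest possible p 0.00216). DESeq2 1.42.0, limma 3.58.1 and 31 settings in all served as alternatives; the fits were tested on simulated data. Libraries held 19244227 to 19771802 counts, with a biological coefficient of variation of 0.101 in the fit. No 2 libraries of a group agreed within counting noise.

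Named were the 5 highest and 5 lowest members by mean TPM, the member with the smallest p, up to 3 called genes per other list and direction, and the 5 most and least alike genes; other called list genes, and members described by role, were named after their values were seen. Results of some genes are not reported here. The members and lists were chosen with earlier results of these data known.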

Additional observations from a re-analysis of the deposited data

Results flagged for a closer look

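Of 108 values or group sums tested for a mouse far from the other 5 of its group, 26 were picked out, where chance would give about 5.4, and 25 of them were those of vehicle-treated mouse 3. Because the family moves together, the 26 are close to 1 observation. The family-wide measures of vehicle-treated mouse 3 were a summed level of 22641 TPM, a share of 1.25% of counts and a median deviation of 0.336 log2 units from the vehicle mean.

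Single genes with vehicle-treated mouse 3 far above its group were, in CPM, *Rpsa* (578.3), *Rps2* (555.1), *Rpl4* (428.6), *Rplp0* (376.9), *Rpl10* (362.6), *Rplp1* (302.9), *Rpl41* (259.2), *Rps26* (258.2) and *Rpl17* (231.5). At lower levels they were *Rps6* (215.3), *Rps3* (190.7), *Rpl35* (185.8), *Rps24* (168.7), *Rps4x* (145.0), *Rps23* (85.75), *Rps20* (76.25), *Rps19* (66.60), *Rps28* (53.63), *Rps15a* (42.03), *Rpl36a* (41.27) and *Rpl39* (27.94). The paralog *Rpl3l* (1.226 CPM) was among them.

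The 1 value from another mouse was *Rpl35* in SK-124-treated mouse 2, at 122.4 CPM below the rest of its group. That mouse had the lowest CPM of its group for 68 of the 76 members.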

How the results depend on the processing

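By edgeR with TMM 0 of 76 members were called higher, where 10.8% of all genes were. The count was 2 with DESeq2 (12.2% of all genes), 1 with RLE factors (11.4%), 6 with a gene length offset (14.5%) and 7 with a GC content offset (12.3%). It was 3 with SK-124-treated mice 4 to 6 alone (8.06%). With 1 mouse left out it was 0 to 40, with 40 without vehicle-treated mouse 3 (13.1%) and 2 without SK-124-treated mouse 2 (10.2%). Settings chosen after seeing the data gave 15 (length offset, vehicle-treated mouse 3 left out, 14.4% of all genes) and 20 (mice numbered 3 of both groups left out, 11.1%). No setting called a member lower. The median log2 fold change with 1 mouse left out ranged from 0.0765 to 0.179. The labels do not say whether replicate numbers pair the mice. Same-numbered mice of the 2 groups correlated at -0.131 to 0.217 in their deviations, and 2 of 6 correlated best with their own number. These values do not settle whether the numbers pair the mice. A replicate block gave 3 calls (*Rps9*, *Rps21*, *Rps13*) where 11.1% of all genes were called higher, and the block with a GC content offset gave 12, where 12.4% were.

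Of the members named for their level, smallest p or extreme change, those that turned negative were uncalled. Over all 76 members, 34 were positive with library totals and 12 with limma on log2(TPM + 1). With library totals the log2 fold changes were -0.040 (*Rplp1*), -0.049 (*Rps15*), -0.041 (*Rpl36a*), -0.052 (*Rps3*), -0.070 (*Rps20*) and -0.0914 (*Rps19*). With limma on log2(TPM + 1) and log2(TPM + 0.1) they were -0.0246 and -0.0246 (*Rpl41*), -0.0686 and -0.0687 (*Rplp1*), -0.0846 and -0.0848 (*Rps15*), -0.0596 and -0.0602 (*Rpl36a*), -0.0926 and -0.0937 (*Rps3*), -0.0246 and -0.0253 (*Rps15a*), -0.104 and -0.106 (*Rps20*), -0.0341 and -0.0351 (*Rpl39*) and -0.120 and -0.122 (*Rps19*). With the length offset *Rps15* was at -0.0118 and *Rps19* at -0.0250 (-0.0117 without vehicle-treated mouse 3), and with SK-124-treated mice 1 to 3 alone *Rps15* was at -0.0245, *Rps20* at -0.0125 and *Rps19* at -0.0904. With 1 mouse left out *Rps20* ranged from -0.0133 to 0.125 and *Rps19* from -0.0201 to 0.0875. The cause was not tested. Over those members and 20 genes of the other lists, up to 3 per list and direction, 855 other values kept direction and call, 72 lost and 27 gained the call. Of these genes *Mrpl47* lost the call in 18 of the settings, among them DESeq2, RLE factors, no filter (FDR 0.103) and the replicate block (FDR 0.0822). Other called list genes are not in these counts. Among them *Eif2s2* lost the call in 17 settings, *Eif4g2* in 15, *Mrps18a* in 14 and *Mrpl44* in 10. The members held 352 to 12054 counts per mouse.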
